A study of Homo sapiens with 2 samples.

Results

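The genes described here are the FAM83 genes FAM83A, FAM83B, FAM83D, FAM83F, FAM83G and FAM83H and the casein kinase 1 genes CSNK1A1, CSNK1D and CSNK1E. They were chosen by name, with earlier results of these data known, and 8 of the 9 have a row among the 29452 gene rows of the table; FAM83F was not analysed here. RNA was sequenced from MDA-MB-231 cells, an established mesenchymal triple-negative human breast cancer line, carrying either a short hairpin against CDK14 (CDK14-sh) or a scramble control. The targeted gene encodes a kinase that works with cyclin Y at the cell membrane, where LRP6 is among its substrates. Each group held 1 library, and the reads assigned to genes numbered 15478156 for CDK14-sh and 17217564 for the scramble control. No difference below therefore has a replicate check, no p-value is given, and higher and lower describe these 2 libraries only. Levels are in RPKM, which divides reads by exon length and by the reads of the library, and intervals in parentheses are 95% intervals from the read counts, which cover counting error only.

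FAM83 proteins share a conserved amino-terminal domain that binds casein kinase 1, a family of serine/threonine kinases that are active without a dedicated switch and depend on partners for their place in the cell. Each FAM83 protein carries the kinase to a particular site. FAM83D takes it to the mitotic spindle through the spindle protein HMMR, FAM83G acts with it in Wnt and BMP signalling, FAM83H works at keratin filaments and in enamel, and FAM83A and FAM83B are linked to EGF receptor and PI3K signalling. Among the kinases, CSNK1A1 primes beta-catenin for destruction, while CSNK1D and CSNK1E phosphorylate the PER clock proteins and Dishevelled.

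CDK14 itself stood at 2.48 RPKM (292 reads) in the control and 0.548 RPKM (58 reads) in CDK14-sh, 22.1% of the control (16.4% to 29.4%). All 7 of the markers fixed for MDA-MB-231 cells were present, the lowest being EGFR at 14.03 RPKM in CDK14-sh, but their levels differed between the libraries. MSN was 2.56-fold lower in CDK14-sh, from 218 to 84.8 RPKM, CAV1 1.81-fold and VIM 1.70-fold lower, and FOSL1 1.69-fold higher. The hormone receptor genes ESR1 and PGR and the epithelial cadherin gene CDH1 lay under 0.05 RPKM in both libraries, whereas ERBB2, EPCAM and GATA3 lay between 2.33 and 5.46 RPKM. Markers of fibroblasts summed to 2.05 RPKM in CDK14-sh and 1.69 RPKM in the control, almost all of it COL1A1. Those of leukocytes summed to 0.777 and 0.698 RPKM and those of endothelium to 0.221 and 0.489 RPKM.

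FAM83D, the spindle anchor, was the member that differed most between the libraries. Its row spans bases 38926312 to 38953106 of chromosome 20 (GRCh38, plus strand), with 2475 bases of exon and no exon shared with another row. FAM83D stood at 17.2 RPKM (16.02 to 18.5; 735 reads) in the scramble control and at 4.39 RPKM (3.75 to 5.10; 168 reads) in CDK14-sh. The intervals are far apart, and the level in CDK14-sh was 25.4% of the control (21.4% to 30.1%), or 3.93-fold lower (3.32 to 4.68). On the scale used for all genes, log2 of the ratio after adding 0.1 RPKM to each level, the value was -1.95. When the 11529 protein-coding genes that reached 30 reads in either library were ordered by this value, FAM83D was number 17 from the lowest. In a bulk sample, fewer cells at a given stage of division and less RNA per cell cannot be told apart.

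The site of interest in FAM83D is a stretch of its 3′ untranslated region. Earlier reading of these same ratios had picked 4 words of 7 bases from the 3′ untranslated regions of lower genes: GTCATGC with the overlapping word TCATGCA, and ATCCATA with the overlapping word TCCATAA. Of the 6 members that reached 1 RPKM in either library, FAM83D and CSNK1A1 carry such a word, where 25.1% of all genes searched carry one. The search was on the transcript strand in the GENCODE v29 transcript with the longest 3′ untranslated region. The 30-base windows around the matches are printed 5′ to 3′ with the matching letters in capitals, because the 2 genes share the 8 letters in which GTCATGC and TCATGCA overlap.
FAM83D, chr20:38952754-38952783, plus strand: caattttaataGTCATGCActacataatga
CSNK1A1, chr5:149492587-149492616, minus strand: atttgctgagtGTCATGCActattctaagt
CSNK1A1, chr5:149492672-149492701, minus strand: ttttcttgcttTCATGCAgttaagccatgg
In FAM83D the match begins at base 245 of 586 of the 3′ untranslated region and lies in both of the 2 coding transcripts of the basic annotation. In CSNK1A1 the 8 letters begin at base 4248 of 4656 and lie in 1 of 8 such transcripts, and the row does not separate these transcripts. The level of CSNK1A1 was not lower in CDK14-sh, as given below.

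GTCATGC occurred in 660 of the 10394 protein-coding genes searched (6.35%), and TCATGCA in 10.6%. Of the genes with GTCATGC, 61 (9.24%) were at least 2-fold lower in CDK14-sh, against 1.68% of the genes without it. These shares do not stand as separate evidence, since the words came from these ratios. Genes with GTCATGC also had longer 3′ untranslated regions, with a median of 3299.5 bases against 1276. A match of letters is a description, and its part in the level of FAM83D was not tested.

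The other FAM83 genes differed little. FAM83A, linked to EGF receptor signalling, lies on chromosome 8 from 123178960 to 123210079 and stood at 3.07 RPKM (2.75 to 3.42; 334 reads) in the control and 3.83 RPKM (3.45 to 4.23; 374 reads) in CDK14-sh. It was 1.25-fold higher (1.07 to 1.45), and the intervals of the 2 levels do not overlap. FAM83G, on chromosome 17 from 18968789 to 19004804, stood at 2.32 RPKM (2.07 to 2.59; 315 reads) and 2.74 RPKM (2.45 to 3.05; 334 reads), which is 1.18-fold higher (1.01 to 1.38). Here the 2 levels have overlapping intervals. With each library rescaled to a common sum of RPKM, the log2 ratio went from 0.31 to 0.16 for FAM83A. For FAM83G it went from 0.23 to 0.08, so the size of both differences depends on the scaling. Parts of both rows are shared with rows on the opposite strand: 2.91% of the exon length of FAM83A with U3 and 6.16% with a row that has only a clone name, and 6.72% of FAM83G with SLC5A10. Whether the counting used strand is not known.

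FAM83H, mutated in the enamel disorder amelogenesis imperfecta, had 10 reads in the control and 11 in CDK14-sh, at 0.103 and 0.126 RPKM. FAM83B had 4 reads in each library, at 0.0734 and 0.0816 RPKM. FAM83C, a relative outside the chosen set, had 1 read in each, and no fold is given. For FAM83H the ratio had an interval from 0.472 to 3.21, and for FAM83B from 0.207 to 5.97, so that a difference of the size seen for FAM83D was not detectable at this depth for FAM83B. For FAM83H a level as low as that of FAM83D, 25.4% of the control, lay outside the interval.

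The casein kinase 1 genes that these proteins anchor were nearly level. CSNK1A1, the beta-catenin kinase, on chromosome 5 from 149492197 to 149551552, stood at 20.1 RPKM (19.4 to 20.9; 2683 reads) in the control and 22.5 RPKM (21.6 to 23.3; 2694 reads) in CDK14-sh. It was 1.12-fold higher (1.06 to 1.18). CSNK1D, on chromosome 17 from 82239023 to 82273731, stood at 10.8 RPKM (10.4 to 11.3; 2054 reads) and 12.4 RPKM (11.9 to 13.0; 2123 reads), 1.15-fold higher (1.08 to 1.22). Counting error is small at these depths, and the spread between cultures is not known. With each library rescaled to a common sum of RPKM, the log2 ratios were 0.007 for CSNK1A1 and 0.05 for CSNK1D. Both differences thus depend on the scaling. CSNK1E, on chromosome 22 from 38290691 to 38398522, stood at 10.2 RPKM in both libraries (1178 reads in the control and 1062 in CDK14-sh), with a ratio of 1.00 (0.922 to 1.09).

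Shared exons touch these kinase rows. CTB-89H12.4, on the same strand, shares 2917 bases with CSNK1A1, 37.7% of its exon length, and was 1.06-fold higher (0.987 to 1.14 as a ratio). In CSNK1D the largest overlap, 1262 bases or 11.4%, is with RP13-516M14.8 on the opposite strand. The CSNK1E row reaches beyond the GENCODE v29 gene, which ends at 38318084, and shares 369 bases with RP3-449O17.1. Reads in exons shared on the same strand cannot be assigned to 1 gene. For exons on opposite strands this depends on whether the counting used strand, which is not known.

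**Figure D1:**
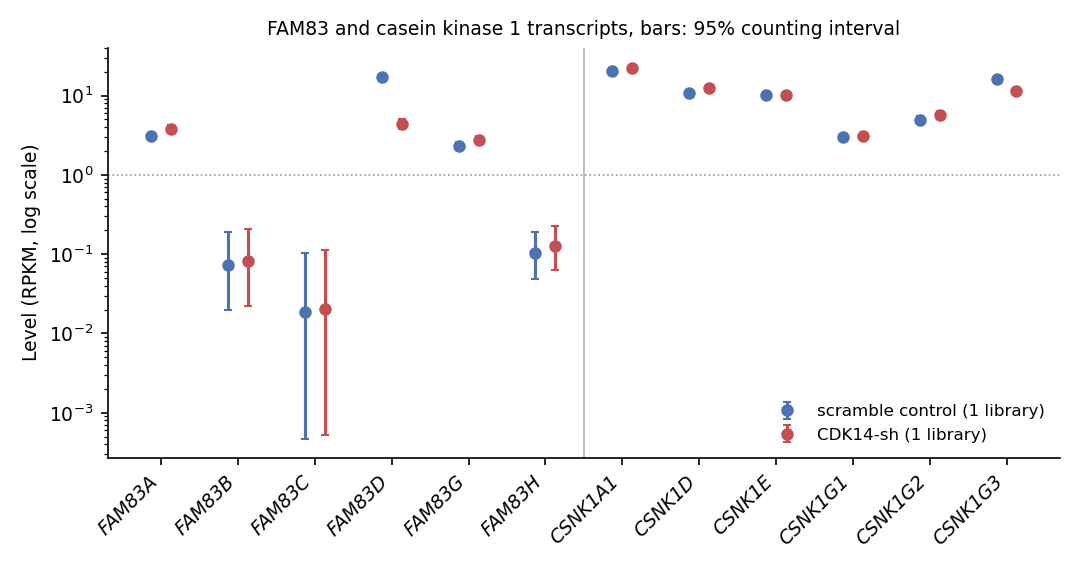
Levels of the 6 FAM83 and 6 casein kinase 1 genes with a row, in RPKM on a log axis, with 1 point per library and bars for the 95% counting interval; the dotted line marks 1 RPKM. FAM83D drops from 17.2 RPKM in the scramble control to 4.39 RPKM in CDK14-sh, while CSNK1A1 stands at 20.1 and 22.5 RPKM and FAM83B, FAM83C and FAM83H lie under 1 RPKM.

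Of the 6 members that reached 1 RPKM in either library, 1 was at least 2-fold lower and 0 were at least 2-fold higher in CDK14-sh, where 3.47% of all 14878 genes at that level were lower and 3.21% higher. At 1.5-fold the members' counts were again 1 and 0, where 9.55% of all genes were lower and 9.11% higher. The member past 2-fold was FAM83D, and since the set was chosen with its value known, nothing is read from the count. The median log2 ratio of the 6 members was 0.18, beside 0.04 over all genes. Without FAM83D, 5 of 5 lay above 0, between 0.004 and 0.31, where 45.3% of all genes lay below 0. With each library rescaled to a common sum of RPKM (TPM), the median of all genes moved from 0.04 to -0.11, and CSNK1E fell below 0, leaving 4 of 5 above. Of those 4, CSNK1A1 lay at 0.007 and CSNK1D at 0.05.

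**Figure D2:**
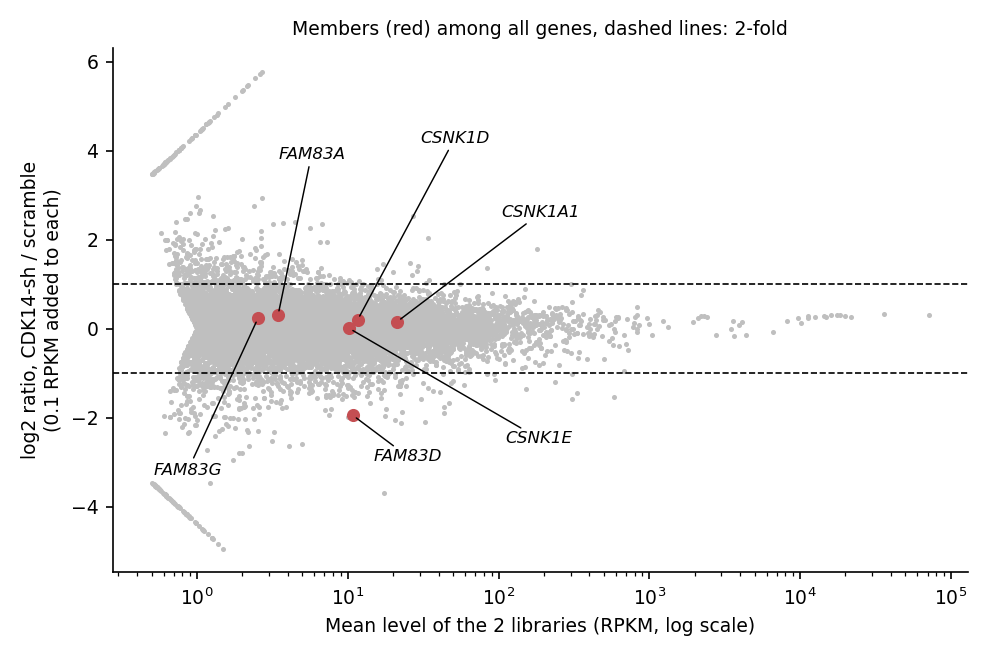
Log2 ratio of CDK14-sh over the scramble control against the mean level of the 2 libraries (RPKM, log axis) for the 14878 genes that reached 1 RPKM in either library (grey) and the 6 members among them (red); the straight arms at the left are genes listed at 0 in 1 library. FAM83D lies at -1.95, below the dashed line of 2-fold, and the other 5 members lie between 0.004 and 0.31.

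The place of FAM83D among the members differed between the libraries. Per length, the order in the control was CSNK1A1, FAM83D, CSNK1D, CSNK1E, FAM83A, FAM83G, FAM83H and FAM83B. The intervals of CSNK1D and CSNK1E overlapped there, as did those of FAM83H and FAM83B. In CDK14-sh, FAM83D came after the 3 kinases and its interval (3.75 to 5.10) overlapped that of FAM83A (3.45 to 4.23). FAM83G, at 2.74 RPKM, was next.

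Of 8 FAM83 genes listed, 6 were measured here. FAM83D made up most of their summed level in the control and a smaller part of it in CDK14-sh. The 6 FAM83 genes with a row summed to 22.8 RPKM in the control and 11.2 RPKM in CDK14-sh, 2.04-fold lower. FAM83D made up 75.5% of that sum in the control and 39.2% in CDK14-sh. FAM83A went from 13.4% to 34.2% and FAM83G from 10.2% to 24.5%. Without FAM83D the sum was 5.59 RPKM in the control and 6.79 RPKM in CDK14-sh, 1.22-fold higher, so the other 5 genes together did not drop. The size of this rise depends on the scaling, with log2 ratios in TPM of 0.16 for FAM83A and 0.08 for FAM83G. Counted as reads not divided by length, the share of FAM83D was 52.5% (49.9% to 55.2%, Clopper-Pearson) in the control and 18.8% (16.3% to 21.6%) in CDK14-sh.

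The pool of the 3 anchored kinases summed to 41.2 RPKM in the control and 45.2 RPKM in CDK14-sh, 1.10-fold higher. This rise depends on the scaling, since in TPM the log2 ratios were 0.007 for CSNK1A1, 0.05 for CSNK1D and -0.15 for CSNK1E. CSNK1A1 held 48.9% of it in the control and 49.8% in CDK14-sh, CSNK1D 26.3% and 27.6%, and CSNK1E 24.8% and 22.7%. Summed transcripts of the measured FAM83 genes amounted to 55.5% of these kinase transcripts in the control and 24.8% in CDK14-sh.

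**Figure D3:**
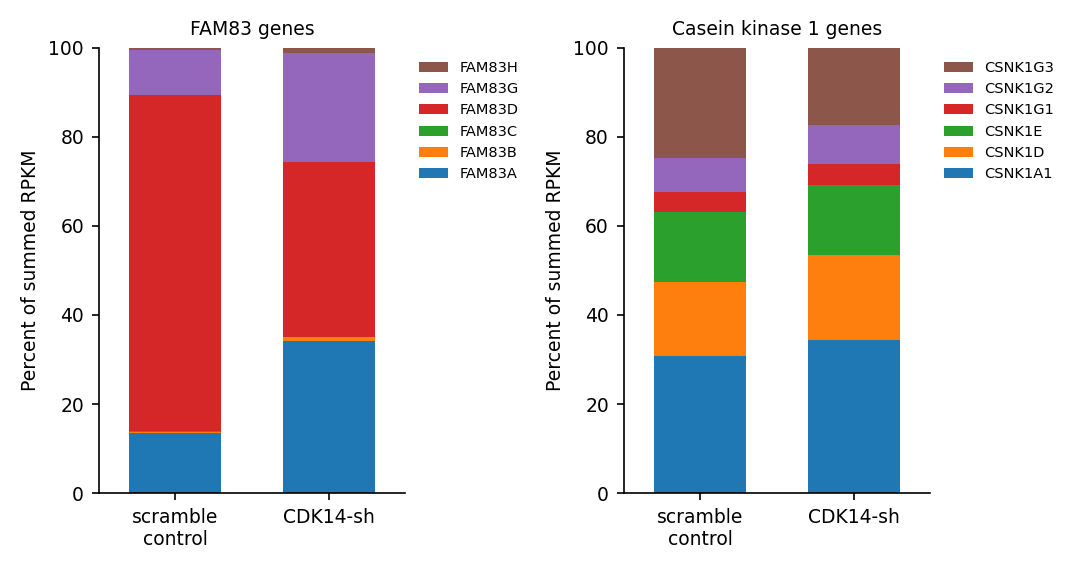
Share of each gene in the summed RPKM of the FAM83 genes with a row (left) and of the casein kinase 1 genes with the gamma kinases included (right), with 1 bar per library. FAM83D takes 75.5% of the FAM83 sum in the scramble control and 39.2% in CDK14-sh, and CSNK1G3 takes 24.8% and 17.3% of the kinase sum.

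The gamma kinases are relatives that attach to membranes and phosphorylate the Wnt co-receptor LRP6. CSNK1G3 stood at 16.2 RPKM (15.3 to 17.1; 1393 reads) in the control and 11.3 RPKM (10.6 to 12.1; 874 reads) in CDK14-sh, 1.43-fold lower (1.32 to 1.56). It was the casein kinase 1 gene with the largest ratio and stayed within 2-fold. CSNK1G1 stood at 3.03 and 3.07 RPKM, in that order, and CSNK1G2 at 4.95 and 5.69 RPKM, 1.15-fold higher (0.984 to 1.34 as a ratio). CSNK1G1 carries the word TCCATAA in its longest 3′ untranslated region, and CSNK1G3 carries none of the 4 words. Over the 6 casein kinase 1 genes, the median log2 ratio was 0.09 and 0 passed 2-fold, where 3.47% of all genes were lower and 3.21% higher.

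Spindle genes listed around FAM83D, reported partners and general mitosis genes together, were mostly a little lower in CDK14-sh. Of 15 listed genes, all above the level filter, 0 passed 2-fold, where 3.47% of all genes were lower and 3.21% higher. Of the 15, 14 lay below 0, where 45.3% of all genes did, and the median log2 ratio was -0.27. HMMR, which holds FAM83D on the spindle, stood at 8.34 RPKM in the control and 7.30 RPKM in CDK14-sh, 1.14-fold lower (1.01 to 1.30). KIF22, the chromokinesin that binds FAM83D, stood at 12.5 and 10.9 RPKM, also 1.14-fold lower (1.04 to 1.26).

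The largest ratios of the list belonged to TPX2, which activates the kinase AURKA on spindles and stood at 115.1 and 77.7 RPKM, 1.48-fold lower (1.43 to 1.54), and ASPM at 17.2 and 11.8 RPKM, 1.46-fold lower (1.38 to 1.55). BUB1, a spindle checkpoint kinase, was 1.37-fold lower (1.29 to 1.46). KIF11, a spindle kinesin, was the exception at 28.9 and 29.03 RPKM and a log2 ratio of 0.01. In TPM and after centring all ratios on their median 15 of 15 lay below 0, and with mitochondrially encoded genes left out of the totals 13 of 15 did.

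Markers of dividing cells were lower along with FAM83D. Of 5 markers, MKI67, TOP2A, CCNB1, CDK1 and BUB1, all 5 were lower in CDK14-sh, where 45.3% of all genes lay below 0. They ranged from 1.22-fold lower for MKI67 to 1.61-fold for TOP2A. None passed 2-fold. BUB1 is also 1 of the spindle genes above. The summed level of the 5 was 285 RPKM in the control and 204 RPKM in CDK14-sh, 1.39-fold lower, against 3.93-fold for FAM83D. Their part in the level of FAM83D was not tested.

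In the Wnt pathway, where casein kinase 1 primes beta-catenin and phosphorylates LRP6, genes went both ways. The median log2 ratio was -0.003, with 12 genes below 0 and 9 above, where 45.3% of all genes lay below 0. TNKS2 was 1.57-fold lower (1.44 to 1.72) and BTRC 1.42-fold higher (1.27 to 1.59), for example. Of 21 listed genes, 2 were at least 2-fold lower and 0 higher, where 3.47% of all genes were lower and 3.21% higher. The 2 were CDK14, the targeted gene, and AXIN2, a scaffold of the destruction complex and a transcriptional target of the pathway. AXIN2 had 93 reads in the control and 28 in CDK14-sh, at 1.03 and 0.346 RPKM, 2.99-fold lower (1.94 to 4.73). With 1 RPKM added to each level in place of 0.1, its log2 ratio was -0.60, short of 2-fold. The CDK14 and AXIN2 rows overlap other rows and lie under 5 RPKM. Over rows that share no exon, and from 5 RPKM upwards, 0 listed Wnt genes were at least 2-fold lower. Each of these settings leaves out both CDK14 and AXIN2, so that count says nothing on their ratios.

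AMER1, which brings APC to the membrane, stood at 1.82 and 3.18 RPKM, 1.75-fold higher (1.49 to 2.05). CTNNB1, encoding beta-catenin, the substrate of CSNK1A1, stood at 58.5 RPKM in the control and 64.3 RPKM in CDK14-sh, 1.10-fold higher (1.06 to 1.14). Its log2 ratio was 0.14, and TPM moved the median of all genes from 0.04 to -0.11, so this rise depends on the scaling. LRP6, the shared substrate of CDK14 and the gamma kinases, was 1.47-fold lower (1.36 to 1.58), from 10.5 to 7.17 RPKM. DDX3X, an RNA helicase that stimulates casein kinase 1, was 1.22-fold lower (1.19 to 1.25).

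Most clock genes around CSNK1D and CSNK1E differed little, with PER2 apart. Of 14 listed genes, 13 had a row and 9 passed the level filter, with a median log2 ratio of 0.002. Of those 9, 0 passed 2-fold, where 3.47% of all genes were lower and 3.21% higher. PER2, a clock repressor that both kinases phosphorylate, stayed under the level filter at 0.743 RPKM (88 reads) in the control and 0.385 RPKM (41 reads) in CDK14-sh. The PER2 row overlaps another row. PER2 was 1.93-fold lower (1.32 to 2.87), further apart than any of the 9 genes above the filter. Among those 9 the largest ratios were those of ARNTL, encoding the clock activator BMAL1, at 1.39 and 1.79 RPKM (1.29-fold higher, 1.04 to 1.60), NR1D1, encoding a nuclear receptor that represses ARNTL, at 4.11 and 4.96 RPKM, and PER3 at 1.17 and 0.965 RPKM. CRY1, a repressor of the clock, stood at 12.3 and 12.1 RPKM.

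Among partners of FAM83A and FAM83B in EGF receptor, RAS and PI3K signalling, 1 of 19 measured genes was at least 2-fold lower and 0 higher. Of all genes, 3.47% were lower and 3.21% higher, and the median log2 ratio of the list was 0.05. The lower gene was PIK3CA, the catalytic subunit of PI3K, at 5.75 RPKM in the control and 2.77 RPKM in CDK14-sh, 2.08-fold lower (1.85 to 2.34). It fell short of 2-fold with mitochondrially encoded genes left out of the library totals (log2 ratio -0.99) and with 1 RPKM added (-0.84). The PIK3CA row overlaps another row, and over rows that share no exon 0 genes of this list were at least 2-fold lower. That setting leaves PIK3CA out, so the count says nothing on its ratio. PIK3R2, a regulatory subunit, went the other way at 16.3 and 25.2 RPKM, 1.55-fold higher (1.44 to 1.67). EGFR stood at 16.3 and 14.03 RPKM.

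Partners of FAM83H and FAM83G lay mostly below 0, with 10 of 11 measured genes there, 0 past 2-fold and a median log2 ratio of -0.19. Of all genes, 45.3% lay below 0, 3.47% were at least 2-fold lower and 3.21% higher. Keratins made up the largest ratios. KRT19 stood at 55.3 RPKM in the control and 30.4 RPKM in CDK14-sh, 1.82-fold lower (1.69 to 1.96), and passed 2-fold in TPM. KRT8 was 1.76-fold lower (1.68 to 1.84) and KRT18, to which FAM83H recruits the kinase, 1.39-fold lower (1.26 to 1.53); the KRT8 and KRT18 rows overlap other rows. SMAD1, a BMP mediator that binds FAM83G, was the 1 gene above 0, at 1.13 and 1.54 RPKM, 1.36-fold higher (1.06 to 1.75). FAM83H itself, as given above, was barely detected in either library.

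The 14-3-3 proteins, which bind phosphorylated partners, FAM83 proteins among those reported, lay below 0 in 7 of 7 cases, with a median log2 ratio of -0.45. Of all genes, 45.3% lay below 0 and 3.47% were at least 2-fold lower. SFN alone was at least 2-fold lower, at 36.4 RPKM in the control and 8.32 RPKM in CDK14-sh, 4.38-fold lower (3.71 to 5.20). YWHAG was 1.60-fold lower (1.52 to 1.69) and YWHAQ 1.53-fold lower (1.45 to 1.62). Of these 7 genes, 5 carry at least 1 of the 4 words in the 3′ untranslated region, SFN, YWHAG and YWHAQ among them, where 25.1% of all genes searched carry one. The words were picked from lower genes of these same ratios, so word counts here and below are no separate evidence. Carriers of a word also had longer 3′ untranslated regions, with a median of 2977.5 bases against 1001.5. YWHAE, another carrier, was 1.20-fold lower (1.18 to 1.23). A word was also found in 9 of 21 Wnt genes, AXIN2 among them, in 5 of 19 genes of the EGF receptor and PI3K list, PIK3CA among them, in 3 of 9 clock genes and in 1 of 11 partners of FAM83H and FAM83G. Of the 15 listed spindle genes 2 carry one, CLTC and KIF15, and without those 2 the median of the spindle list was -0.19. The part of the words in the levels of any of these lists was not tested.

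**Figure D4:**
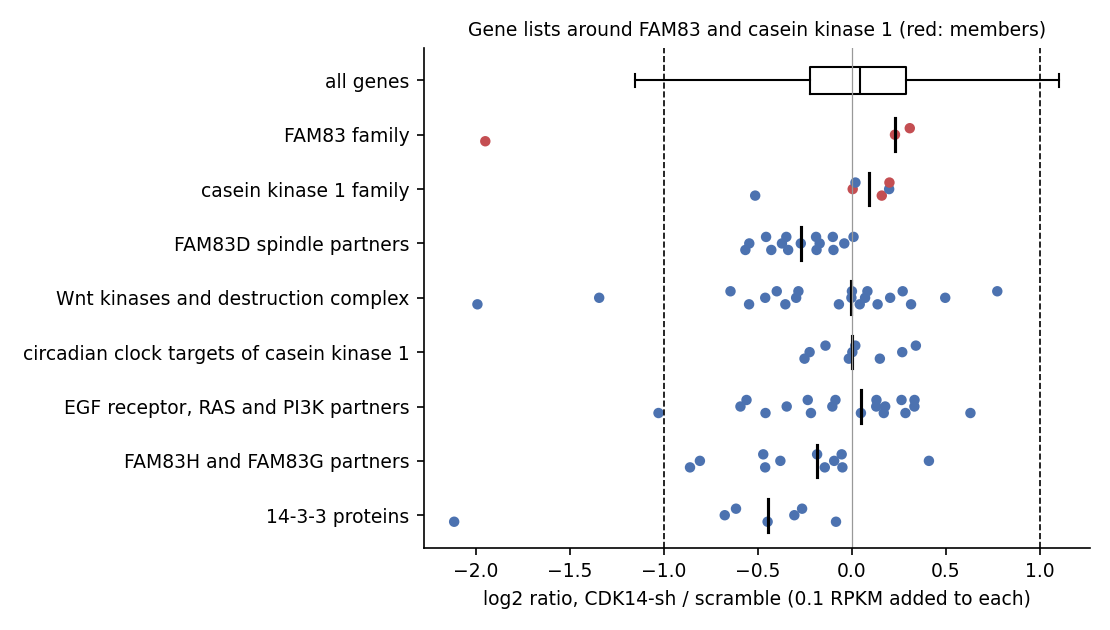
Log2 ratios of CDK14-sh over the scramble control for the genes of 8 lists that reached 1 RPKM in either library, with 1 point per gene (red for members), a black bar at each list's median and dashed lines at 2-fold; the box for all genes spans the quartiles and its whiskers the central 95%. FAM83D stands apart at -1.95 from the spindle list, which holds reported partners and general mitosis genes and has a median of -0.27.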

How the data were processed

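RNA was sequenced from 1 CDK14-sh and 1 scramble control library of MDA-MB-231 cells, made with a stranded mRNA kit per the labels' protocols. The deposited table gives RPKM by the authors beside exon coordinates and exon length for every gene, per the file headers. Subread 1.5.1, featureCounts, Bowtie 0.12.2 and the builds mm8 and GRCh38 appear in the submitters' processing notes without a role, and how strand and overlaps were handled is not given there. Of the 8 member rows, 7 have the start and end of GENCODE v29 on GRCh38.

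Multiplied by exon length, 100% of the values above 0 came out as whole reads to within 0.01 read in both libraries, which gave the reads per gene and, from them, 95% Clopper-Pearson intervals for ratios and exact Poisson intervals for levels. The floor of 3 reads, for 1 kb of exon, is 0.194 RPKM in CDK14-sh and 0.174 in the control. PCR copies are not independent molecules. The log2 ratio sets CDK14-sh over scramble after 0.1 RPKM is added to each level, so low genes appear less changed, and uses genes that reached 1 RPKM in either library; folds are plain ratios of RPKM. With 1 library per group no difference was tested.

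The members and the 8 gene lists and 6 marker lists were chosen with earlier results of these data known. Named are the members and their relatives, CDK14, rows overlapping a member, the 3 largest ratios of each list and the 4 genes nearest to FAM83D in ratio, except that some of these genes are not reported here; others, such as HMMR, KIF22, KIF11, CTNNB1, LRP6, DDX3X, CRY1, PER2, YWHAE, EGFR, SMAD1 and the genes beside FAM83D on its chromosome, were named after their values were seen or for their role. Words were searched in GENCODE v29 basic coding transcripts. Scripts were tested on simulated data. The tools were scipy 1.17.1, pandas 2.3.3 and numpy 2.4.6 in Python 3.11.15, with matplotlib 3.10.9 for plots. Alternatives numbered 12, of which 2 were added after the values were seen.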

Additional observations from a re-analysis of the deposited data

How the results depend on the processing

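No paired analysis was possible because with 1 library a group nothing pairs, and no library could be left out. The log2 ratio of FAM83D was -1.95 and stayed within its counting interval under 5 alternatives, from -2.11 in TPM to -1.76 with 1 RPKM added. Members past the fold numbered 1 lower and 0 higher under the 9 alternatives that gave a count for them, of which 1 set the fold at 1.5 in place of 2. Of all 14878 genes 516 were lower and 478 higher, 259 and 176 with 1 RPKM added, and 1421 and 1355 at 1.5-fold. Keeping low genes gave 2043 and 2173 of 29452, and a filter of 5 RPKM gave 177 and 83 of 7933. Over the 6973 rows at 1 RPKM that share no exon, 315 were lower and 307 higher, and FAM83D is the only measured member there. TPM gave 1128 lower and 609 higher, of the 17068 genes that reached 1 TPM. A restriction to protein-coding genes gave 226 and 109 of 10417, and one to genes reaching 30 reads 329 and 205 of 14744, both chosen after seeing the data. The lower share of those past 2-fold was 51.9%, 64.9% in TPM and 46.3% without mitochondrial genes. Reads not divided by length gave FAM83D 18.8% of the FAM83 genes in CDK14-sh and 52.5% in the control, and CSNK1A1 45.8% and 45.4% of the 3 kinases. Single genes gave 170 values in alternatives: 147 inside the counting interval and 23 outside it, and 0 called ones changed sign. List medians moved by at least 0.1 in 14 of 72 cases. List counts moved by more than 1.5-fold, or to or from 0, in 12 of 144 cases. Depth limits FAM83B, FAM83C and FAM83H, with at most 11 reads each.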

Other observations

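The genes beside FAM83D on chromosome 20 did not share its lower level. They were looked up by position, as the nearest protein-coding rows with at least 1 RPKM on each side. DHX35, an RNA helicase gene that starts 9.19 kb after the end of FAM83D, stood at 3.68 RPKM in the scramble control (312 reads) and 4.11 RPKM in CDK14-sh (314 reads), 1.12-fold higher (0.954 to 1.31 as a ratio). ACTR5, encoding an actin-related subunit of the INO80 chromatin remodeller, ends 153.8 kb before it and stood at 3.17 RPKM (140 reads) and 4.58 RPKM (182 reads), 1.45-fold higher (1.15 to 1.82).

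Among genes with at least 30 reads, CD55, RCSD1 and FLJ22447 had the log2 ratios nearest to that of FAM83D over these 2 libraries. CD55, a complement regulator, stood at 28.3 RPKM in the control and 7.19 RPKM in CDK14-sh, and RCSD1 at 11.9 and 3.03 RPKM. FLJ22447, which is not among the protein-coding genes, stood at 2.496 and 0.560 RPKM. Their log2 ratios differed from that of FAM83D by 0.01 to 0.02, and CD55 and RCSD1, which have an annotated 3′ untranslated region, carry none of the 4 words there. All 3 share exons with other rows.

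CTD-2116N17.1, which shares 1582 bases with CSNK1G1 on the same strand, was 1.64-fold lower (1.45 to 1.86), at 12.4 and 7.59 RPKM, while CSNK1G1 had a ratio of 1.01 (0.891 to 1.15).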
